A study of Mus musculus with 36 samples.

Results

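The collagen genes outside cartilage comprise 33 listed genes, each encoding 1 chain of a collagen, among the 24411 genes of the RNA-seq tables. All 33 were found by symbol. They were measured in cultured mesenchymal stem cells (MSCs) from femoral bone marrow (fBM-MSCs), vertebral bone marrow (vBM-MSCs), adipose tissue (A-MSCs) and lung (P-MSCs) of C57BL6/J mice, 8 weeks old and without a transgene or treatment. The 4 tissues came from the same 3 mice, but the sources used here do not match libraries to mice. Marrow cells were freed by crushing bone, while adipose tissue and lung were minced and digested with collagenase. This step and the bone marrow or non-bone marrow origin therefore cannot be told apart. All cultures were grown on dishes coated with type I collagen in MesenCult medium with MesenPure and a Rock inhibitor and were used within 3 passages. RNA-seq covered 3 libraries each of fBM-MSCs, A-MSCs and P-MSCs and 2 libraries of vBM-MSCs, and replicate 3 of the vBM-MSC RNA was not analysed here. ATAC-seq gave 1 list of open regions for each tissue.

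Collagens are trimers whose chains wind into a triple helix, and most are secreted into the extracellular matrix. Fibrillar collagens, such as types I, III and V, form the cross-banded fibrils of bone, skin and stroma. Type IV collagen forms the sheet of basement membranes, type VI the beaded filaments around cells, and type VIII a lattice known from the cornea and vessel walls. Fibril-associated collagens such as types XII, XIV and XVI bind to the surface of fibrils. Mesenchymal cells are the main producers of fibrillar collagen in most tissues, and type I collagen is the main protein of the bone matrix.

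The RNA-seq libraries held 19569650 to 40517739 expected counts, that is, reads assigned to genes by a model. The 4 genes of the positive surface markers (Itgb1, Cd44, Ly6a and Vcam1) were each at 1 TPM or more in at least 1 library of every tissue, TPM being a transcript level corrected for gene length and library size. Markers of other cell types also moved with the tissues, and their part in the results was not tested. The summed TPM of 7 osteoblast markers ran from 683 to 4145 in fBM-MSCs, from 41.3 to 610 in vBM-MSCs, and reached at most 3.45 in A-MSCs and 0.53 in P-MSCs, where 6 and 7 of the 7 genes were under 1 TPM in every library. Replicate 3 of the fBM-MSCs and replicate 2 of the vBM-MSCs held the highest osteoblast sums of their tissues. Replicate 2 of the vBM-MSCs also held 75.1 TPM of the cartilage collagen gene Col2a1, against 4.92 TPM in replicate 1. The 6 chondrocyte markers summed to 15.8 to 99.0 TPM in fBM-MSCs and 126 to 185 TPM in vBM-MSCs, against at most 11.4 TPM. Among them, Sox9 in A-MSCs (8.12 to 10.8 TPM) lay within the range of the marrow cultures (6.44 to 12.3 TPM). The 6 mesothelial markers summed to 92.1 to 141 TPM in A-MSCs and 23.0 to 39.0 TPM in P-MSCs, against at most 15.2 TPM in the marrow cultures. In P-MSCs this sum was mostly Upk1b (21.3 to 35.9 TPM), and 4 of the 6 genes were under 1 TPM in every library. The 6 smooth muscle and pericyte markers summed to 12319 to 12904 TPM in A-MSCs, 4514 to 5239 TPM in P-MSCs, 6189 to 7712 TPM in vBM-MSCs and 1071 to 1466 TPM in fBM-MSCs, without overlap between any of the tissues and with Rgs5 and Myh11 low throughout. The 8 epithelial markers summed to 45.2 to 70.0 TPM in A-MSCs and 52.4 to 60.9 TPM in P-MSCs, against at most 12.2 TPM in the marrow cultures. In P-MSCs this sum was mostly Krt19 (51.7 to 59.8 TPM), and 6 of the 8 genes were under 1 TPM in every library. The 7 endothelial markers summed to 3.53 to 55.5 TPM in A-MSCs and 2.55 to 8.38 TPM in P-MSCs, against at most 1.19 TPM. In the other direction, the 3 negative surface markers of MSCs summed to 10.3 to 79.2 TPM in fBM-MSCs and 7.33 to 7.87 TPM in vBM-MSCs, against at most 5.54 TPM. In the marrow cultures this sum was nearly all Cd34. The other 2 genes went the other way, with Pecam1 highest in A-MSCs (0.28 to 3.84 TPM) and Ptprc highest in P-MSCs (0.20 to 0.35 TPM). The paper reported these surface proteins as negative on all its MSCs by flow cytometry. The 5 Schwann cell markers summed to 19.1 to 56.2 TPM in fBM-MSCs and 6.66 to 17.4 TPM in vBM-MSCs, against at most 3.21 TPM. In the marrow cultures this sum was nearly all S100b, and Mbp went the other way. The 6 macrophage markers summed to 21.8 to 49.4 TPM in the marrow cultures against 9.40 to 24.5 TPM, and among them Csf1r went the other way. In these bulk cultures, fewer cells of a type and less RNA per cell cannot be told apart.

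The collagen genes together made up 0.116% to 0.150% of all TPM in the non-bone marrow cultures and 0.180% to 0.411% in the bone marrow cultures, without overlap between the origins. The highest share belonged to replicate 3 of the fBM-MSCs. Most of it came from Col1a1 and Col1a2, the chains of type I collagen. Of the 33 genes, 24 passed the filter on low counts (at least 1 CPM, a count scaled to library size, in 2 or more libraries) and 9 did not. The levels spanned from 2161 TPM for Col1a1 to values under 1 TPM in every library for Col17a1, a transmembrane collagen of epithelial cells.

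**Figure D1:**
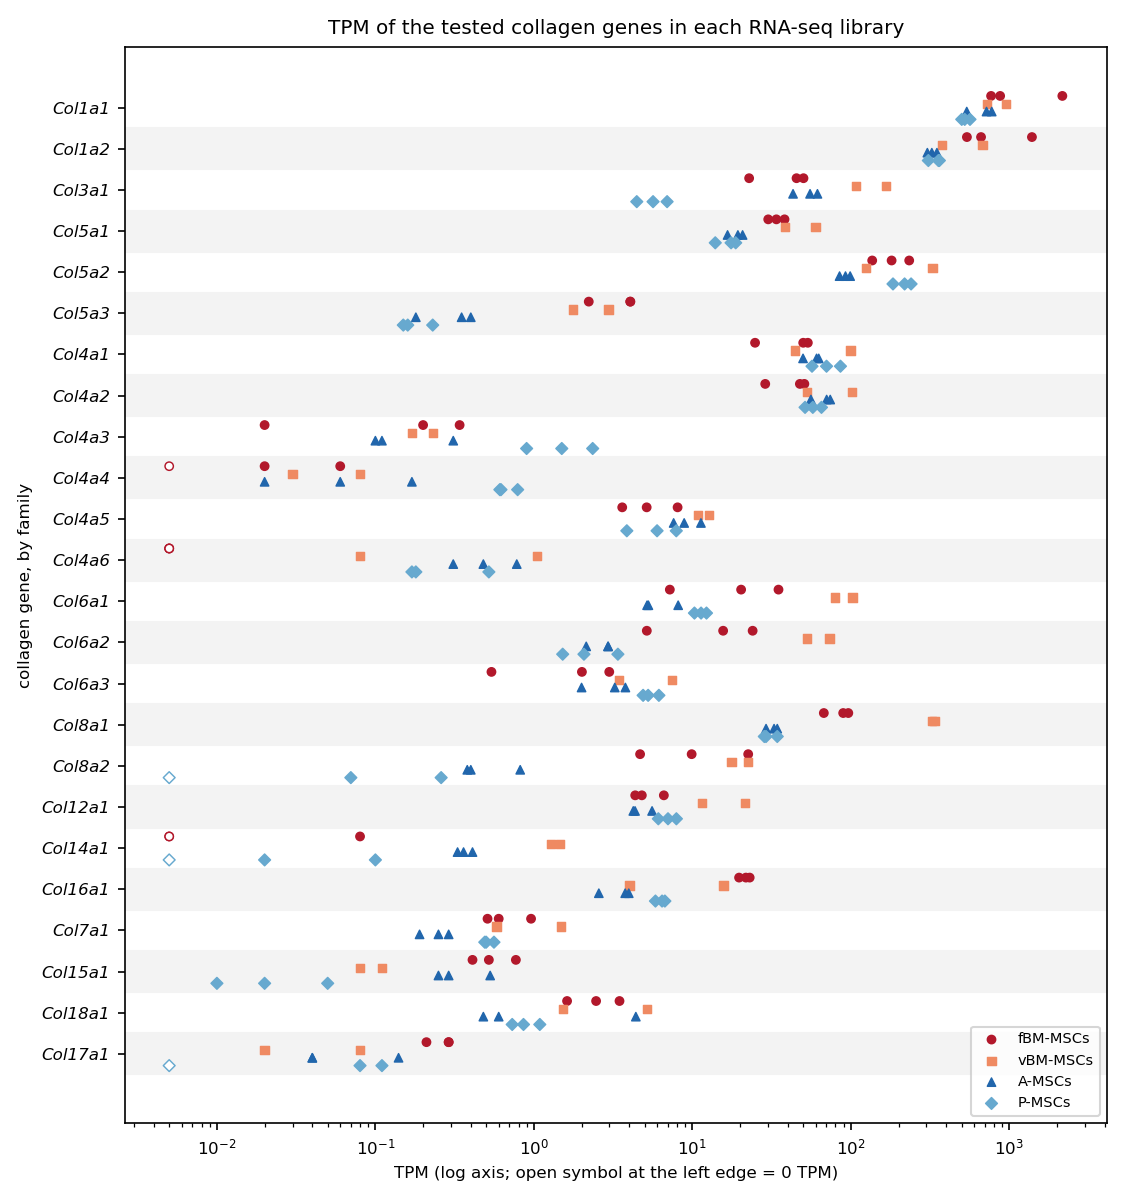
TPM of the 24 tested collagen genes in each of the 11 RNA-seq libraries, on a log axis, with 1 symbol per library coloured by tissue and an open symbol at the left edge for 0 TPM. Col8a1, Col6a1 and Col6a2 are highest in the vBM-MSCs, and Col3a1 lies between 4.46 and 6.93 TPM in the P-MSCs, below every other library.

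The level differed among the 4 tissues for 20 of the 24 tested genes, by the quasi-likelihood test of edgeR at an adjusted p under 0.05, where 60.6% of all 12509 tested genes were called. Col4a1, Col6a3, Col17a1 and Col18a1 were not called. By mean TPM, 16 of the 24 genes were highest in vBM-MSCs, 6 in fBM-MSCs, 2 in P-MSCs and none in A-MSCs.

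Against the non-bone marrow MSCs, the bone marrow MSCs held more RNA of 13 tested collagen genes and less of 2, and 9 were not called. Among all tested genes, 24.8% were called higher and 22.4% lower. All 6 tested fibrillar genes rose, with both chains of type VIII, Col6a1 and Col6a2 of type VI, the fibril-associated Col12a1 and Col16a1, and Col7a1 of the anchoring fibrils below epithelia. The 2 genes that fell, Col4a4 and Col4a6, encode minor chains of basement membrane. The median log2 fold change was 0.90 over the 24 genes, also with Col4a6 at the bound that its 0 counts in fBM-MSCs allow, and 0.03 over all tested genes. TPM did not overlap between the origins for 6 genes that were higher in the marrow cultures (Col1a2, Col5a1, Col5a3, Col6a2, Col8a1 and Col8a2), where 10.4% of all tested genes were separated in this direction, and for 0 genes that were lower, where it was 9.51%. The count of higher genes was 12 without replicate 3 of the fBM-MSCs and 11 without replicate 2 of the vBM-MSCs.

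**Figure D2:**
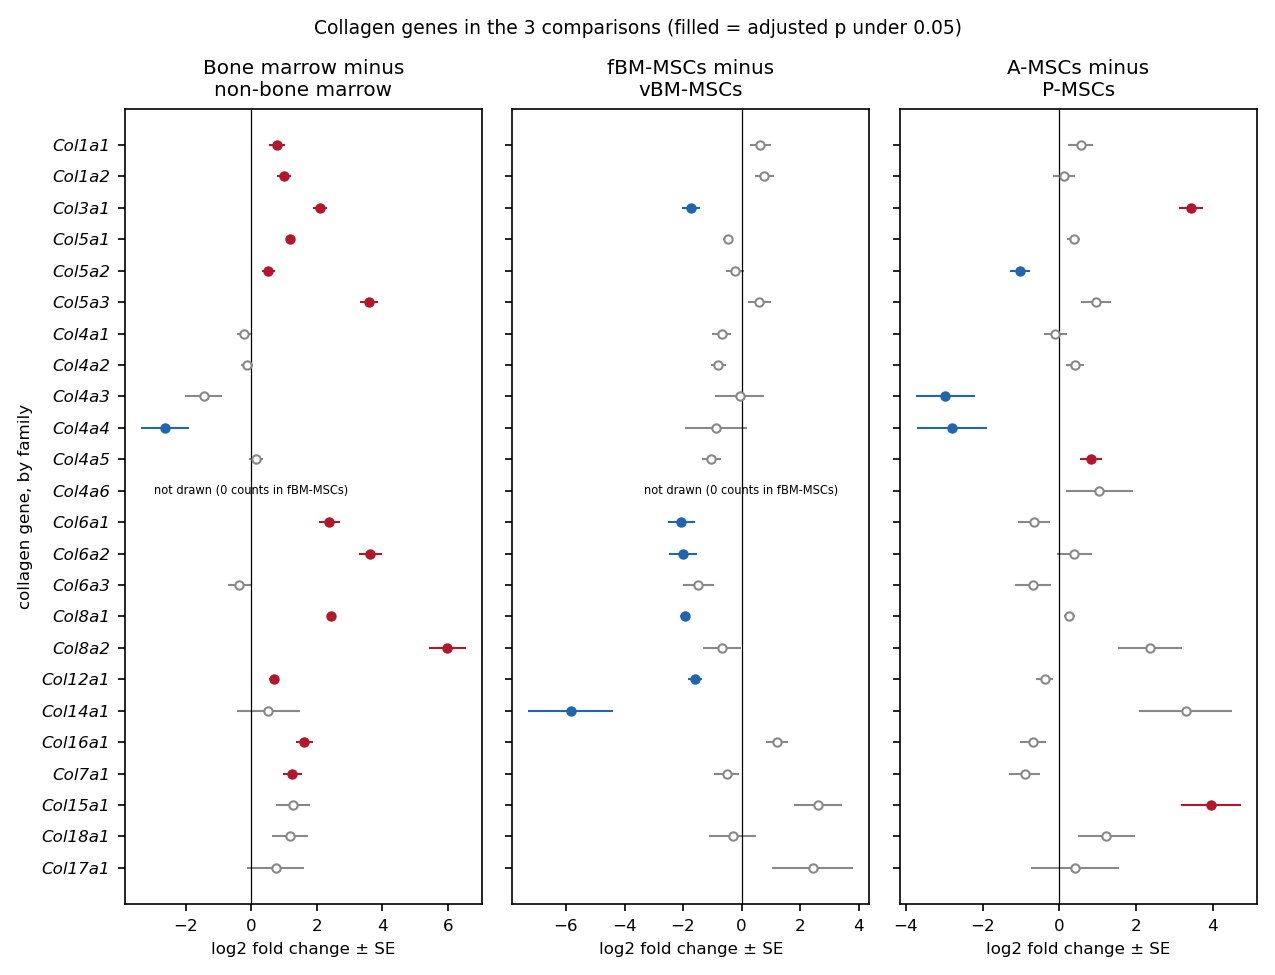
Fitted log2 fold change of the 24 tested collagen genes with its standard error in the 3 comparisons, filled and coloured where the adjusted p was under 0.05. In bone marrow against non-bone marrow, 13 genes lie right of 0 and are called, and between the marrow sites all 7 called genes are lower in fBM-MSCs. Col4a6 is not drawn where fBM-MSCs hold 0 counts.

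Type I collagen was the most abundant in every library. Col1a1 stood at 767, 875 and 2161 TPM in fBM-MSCs, 725 and 957 TPM in vBM-MSCs, 539, 718 and 775 TPM in A-MSCs, and 523, 565 and 501 TPM in P-MSCs. The origins overlapped, since replicate 3 of the A-MSCs lay above replicate 1 of each marrow site. Its fitted log2 fold change was 0.79 ± 0.24 (SE, adjusted p = 0.0177), and the adjusted p was 0.0536 without replicate 2 of the vBM-MSCs. Col1a2, the partner chain, stood at 540.1, 663 and 1389 TPM in fBM-MSCs, 377 and 676 TPM in vBM-MSCs, 304, 324 and 349 TPM in A-MSCs, and 308, 362 and 357 TPM in P-MSCs. Every marrow library was above every other library, and the log2 fold change was 1.01 ± 0.22 (adjusted p = 0.00275). The ratio of Col1a1 to Col1a2 was between 1.32 and 2.22 in all libraries and was not called between the origins (log2 difference -0.24, adjusted p = 0.242, two-sided exact permutation test).

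Col3a1 encodes the single chain of type III collagen, which forms thin fibrils in elastic and loose tissue. Its level was 45.4, 22.8 and 50.3 TPM in fBM-MSCs, 108 and 167 TPM in vBM-MSCs, 43.2, 55.3 and 61.6 TPM in A-MSCs, and 4.46, 5.65 and 6.93 TPM in P-MSCs. The P-MSCs were lowest and the vBM-MSCs highest without overlap, while fBM-MSCs and A-MSCs overlapped. It was higher in bone marrow MSCs by 2.08 ± 0.21 (log2, adjusted p = 1.44e-05), lower in fBM-MSCs than in vBM-MSCs (-1.73 ± 0.31, adjusted p = 0.00476) and higher in A-MSCs than in P-MSCs by 3.43 ± 0.31 (adjusted p = 3.03e-05). The fBM-MSCs and A-MSCs were not called apart (log2 fold change -0.50, adjusted p = 0.18), so the difference between the origins rested on the vBM-MSCs and on the low level in P-MSCs. Relative to Col1a1, Col3a1 was 0.149 and 0.175 in vBM-MSCs and 0.00853 to 0.0138 in P-MSCs.

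Type V collagen lies inside type I fibrils and is known to set their diameter. Col5a1 was at 33.9, 30.1 and 38.2 TPM in fBM-MSCs, 38.5 and 59.8 TPM in vBM-MSCs, 16.7, 19.4 and 20.8 TPM in A-MSCs, and 14.0, 18.8 and 17.6 TPM in P-MSCs. The marrow cultures lay above the others without overlap, by 1.20 ± 0.12 (log2, adjusted p = 1.38e-05). Col5a3, the rarer chain of this type, was at 4.06, 4.06 and 2.22 TPM in fBM-MSCs, 1.76 and 2.96 TPM in vBM-MSCs, 0.40, 0.35 and 0.18 TPM in A-MSCs, and 0.16, 0.15 and 0.23 TPM in P-MSCs. The marrow libraries were again all higher. The log2 fold change of 3.60 ± 0.28 (adjusted p = 1.88e-06) was the largest among the 6 listed fibrillar genes tested. Col5a2 had a different order, at 136, 181 and 234 TPM in fBM-MSCs, 125 and 327 TPM in vBM-MSCs, 84.9, 92.5 and 99.0 TPM in A-MSCs, and 185, 240 and 218 TPM in P-MSCs. The A-MSCs were lowest without overlap, and the P-MSCs lay within the range of the marrow cultures. Its call between the origins (log2 fold change 0.52 ± 0.20, adjusted p = 0.0486) was lost in 11 of 18 alternative fits, and it was lower in A-MSCs than in P-MSCs (-1.02 ± 0.27, adjusted p = 0.0139). That second call was lost without replicate 1 of the A-MSCs or replicate 2 of the P-MSCs. The ratio of Col5a1 to Col5a2 was 0.0756 to 0.0804 in P-MSCs and 0.163 to 0.309 in the other tissues.

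The 250 bases upstream of the start site are shown for 3 fibrillar genes whose RNA rose in the marrow cultures and for Col8a1, with 3 motifs searched on both strands and set in capitals, namely TATAAA, the core promoter box, then CCAAT, the box that NF-Y is known to bind, and GGGCGG, the box known for Sp1. They are RefSeq sequences of GRCm38.p6, written 5′ to 3′ along the gene.
Col1a2 promoter (chr6:4505368-4505617, plus strand): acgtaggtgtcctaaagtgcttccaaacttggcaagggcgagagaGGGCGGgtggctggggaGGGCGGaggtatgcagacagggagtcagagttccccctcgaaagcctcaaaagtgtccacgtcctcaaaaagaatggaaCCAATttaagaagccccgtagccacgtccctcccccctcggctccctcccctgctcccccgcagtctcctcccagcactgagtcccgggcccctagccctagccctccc
Col3a1 promoter (chr1:45311288-45311537, plus strand): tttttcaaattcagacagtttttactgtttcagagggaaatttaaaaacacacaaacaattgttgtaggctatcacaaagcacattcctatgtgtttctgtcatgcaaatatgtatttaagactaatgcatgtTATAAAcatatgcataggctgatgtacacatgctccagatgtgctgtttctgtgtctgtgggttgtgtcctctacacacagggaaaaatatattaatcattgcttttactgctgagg
Col5a3 promoter (chr9:20815068-20815317, minus strand): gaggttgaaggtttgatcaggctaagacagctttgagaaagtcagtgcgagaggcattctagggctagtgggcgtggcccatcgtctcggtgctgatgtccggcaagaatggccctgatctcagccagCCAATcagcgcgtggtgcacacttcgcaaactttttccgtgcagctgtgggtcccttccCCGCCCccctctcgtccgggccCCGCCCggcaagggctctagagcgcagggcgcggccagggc
Col8a1 promoter (chr16:57754738-57754987, minus strand): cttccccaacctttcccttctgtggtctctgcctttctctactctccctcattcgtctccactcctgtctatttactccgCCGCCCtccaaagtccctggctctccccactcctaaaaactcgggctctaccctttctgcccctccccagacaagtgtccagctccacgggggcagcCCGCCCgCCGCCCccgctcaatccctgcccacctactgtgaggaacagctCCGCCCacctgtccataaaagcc
The Col1a2 and Col5a3 windows each hold 1 CCAAT and 2 GGGCGG matches. The Col3a1 window holds 1 TATAAA match and neither of the others, and the Col8a1 window holds 4 GGGCGG matches. Of the 33 genes, 27 had an upstream sequence, and TATAAA occurred in 4 of them, CCAAT in 10 and GGGCGG in 16. Among all 32851 upstream windows of the same length, the shares were 12.4%, 33.8% and 32.7%. A match is a run of letters and not a measured site.

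Type VI collagen is built from 1 chain each of Col6a1, Col6a2 and a further gene such as Col6a3, and Col6a1 and Col6a2 are neighbours on the same strand (chr10:76708792-76726044 and chr10:76595756-76623404, GRCm38). Col6a1 was at 20.3, 7.21 and 35.0 TPM in fBM-MSCs, 79.6 and 102 TPM in vBM-MSCs, 5.18, 5.28 and 8.14 TPM in A-MSCs, and 10.3, 12.3 and 11.4 TPM in P-MSCs. Col6a2 was at 15.6, 5.16 and 24.0 TPM in fBM-MSCs, 53.0 and 73.4 TPM in vBM-MSCs, 2.94, 2.14 and 2.94 TPM in A-MSCs, and 2.07, 1.52 and 3.39 TPM in P-MSCs. The vBM-MSCs were highest for both genes, and replicate 2 of the fBM-MSCs fell below the P-MSCs for Col6a1. Both rose in bone marrow MSCs, Col6a1 by 2.38 ± 0.32 (log2, adjusted p = 9.80e-05) and Col6a2 by 3.63 ± 0.35 (adjusted p = 9.85e-06). Both were lower in fBM-MSCs than in vBM-MSCs, at log2 fold changes of -2.06 ± 0.46 (adjusted p = 0.0145) and -2.01 ± 0.48 (adjusted p = 0.0198). These latter calls were lost without replicate 1 of the vBM-MSCs (highest adjusted p 0.0555 for Col6a1 and 0.0659 for Col6a2 over the libraries left out), and for Col6a2 also without replicate 2.

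Between the origins, Col6a3 was not called with its partners. It was at 2.99, 0.54 and 2.01 TPM in fBM-MSCs, 3.43 and 7.45 TPM in vBM-MSCs, 3.78, 2 and 3.24 TPM in A-MSCs, and 5.26, 4.89 and 6.15 TPM in P-MSCs. The origins overlapped and were not called apart (log2 fold change -0.36 ± 0.35, adjusted p = 0.426). The fBM-MSCs lay below the vBM-MSCs without overlap, the direction seen for Col6a1 and Col6a2, but were not called (-1.48 ± 0.52, adjusted p = 0.0858), and that comparison passed with DESeq2 (adjusted p = 0.0244) and without replicate 1 of the fBM-MSCs (0.0281). The A-MSCs lay below the P-MSCs without overlap and were not called (-0.68 ± 0.47, adjusted p = 0.297). That comparison passed in the fit to the compared libraries alone (adjusted p = 0.0127). The fBM-MSCs were called lower than P-MSCs (-1.44 ± 0.48, adjusted p = 0.0279). The chain ratios differed. Col6a3 stood at 0.147, 0.0749 and 0.0575 of Col6a1 in fBM-MSCs and 0.0431 and 0.0727 in vBM-MSCs. In A-MSCs the same ratio was 0.730, 0.379 and 0.398, and in P-MSCs 0.510, 0.398 and 0.542. The origins did not overlap, and the log2 difference was -2.72 (adjusted p = 0.0115, two-sided exact permutation test over 462 divisions of the libraries, adjusted over 8 chain pairs). The ratio of Col6a1 to Col6a2 also differed, at 1.30 to 1.50 in the marrow cultures, 1.76 to 2.77 in A-MSCs and 3.35 to 8.08 in P-MSCs (log2 difference -1.28, adjusted p = 0.0115). The unadjusted p of 0.00433 behind these values is the smallest that 5 against 6 libraries can give.

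**Figure D3:**
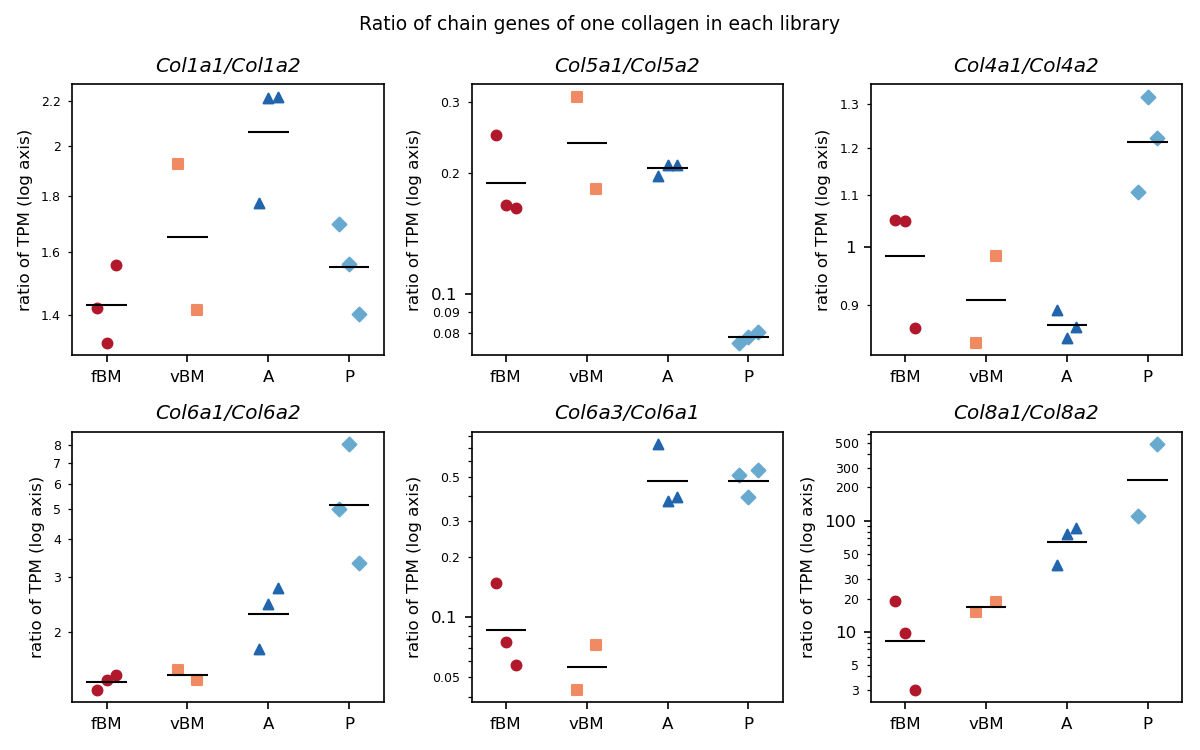
Ratio of the TPM of chain genes belonging to 1 type of collagen in each library, on log axes, with the geometric mean of each tissue as a line. Col6a1/Col6a2, Col6a3/Col6a1 and Col8a1/Col8a2 separate the bone marrow cultures from the others, and Col1a1/Col1a2 and Col4a1/Col4a2 overlap. Replicate 3 of the P-MSCs is left out of Col8a1/Col8a2 because Col8a2 was at 0 TPM.

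Type VIII collagen held the largest called rise between the origins among the 24 listed genes tested, that of Col8a2. Col8a2 was at 4.68, 9.90 and 22.5 TPM in fBM-MSCs, 22.4 and 17.7 TPM in vBM-MSCs, 0.82, 0.38 and 0.40 TPM in A-MSCs, and 0.26, 0.07 and 0 TPM in P-MSCs. Col8a1 was at 89.5, 96.4 and 67.6 TPM in fBM-MSCs, 337 and 327 TPM in vBM-MSCs, 32.8, 29.2 and 34.3 TPM in A-MSCs, and 28.5, 34.3 and 29.2 TPM in P-MSCs. The origins did not overlap for either gene, and for Col8a1 the marrow sites did not overlap either. The log2 fold change between the origins was 5.99 ± 0.56 for Col8a2 (adjusted p = 7.21e-06) and 2.42 ± 0.11 for Col8a1 (adjusted p = 8.21e-08). Between the marrow sites, Col8a1 was lower in fBM-MSCs (-1.94 ± 0.15, adjusted p = 4.83e-05), while Col8a2 was not called (-0.66 ± 0.65, adjusted p = 0.549). The ratio of Col8a1 to Col8a2 was at most 19.1 in the marrow cultures, 40.0 to 85.9 in A-MSCs, and 109 and 491 in the P-MSC libraries with Col8a2 above 0. This ratio differed between the origins (log2 difference -4.03 with 0.01 TPM added to each value, adjusted p = 0.0115, two-sided exact permutation test), and its size depended on the added value.

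Among the fibril-associated genes, Col12a1 and Col16a1 rose in the marrow cultures, but each was highest at a different marrow site. Col12a1, whose product is known from tendon and periosteum, was at 6.61, 4.80 and 4.36 TPM in fBM-MSCs, 11.5 and 21.5 TPM in vBM-MSCs, 5.57, 4.35 and 4.24 TPM in A-MSCs, and 6.10, 7.93 and 7.02 TPM in P-MSCs. Only the vBM-MSCs stood above the rest, and the fBM-MSCs were not called against A-MSCs (log2 fold change 0.09, adjusted p = 0.76) or P-MSCs (-0.29, adjusted p = 0.28). The fold changes were 0.69 ± 0.16 between the origins (adjusted p = 0.00391) and -1.58 ± 0.24 for fBM-MSCs minus vBM-MSCs (adjusted p = 0.00178). Col16a1 was at 21.8, 23.0 and 19.7 TPM in fBM-MSCs, 4.01 and 15.7 TPM in vBM-MSCs, 2.57, 3.77 and 3.97 TPM in A-MSCs, and 5.85, 6.44 and 6.71 TPM in P-MSCs. Here the fBM-MSCs were highest, and replicate 1 of the vBM-MSCs lay among the A-MSCs and P-MSCs. It rose by 1.62 ± 0.25 between the origins (adjusted p = 0.000300), and the comparison of the marrow sites was not called (1.21 ± 0.39, adjusted p = 0.0634). That comparison passed in 6 of 19 alternative fits, DESeq2 and the fit without replicate 2 of the vBM-MSCs among them.

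Col14a1, which encodes a collagen of mature fibrils, was at 1.28 and 1.46 TPM in vBM-MSCs, 0.41, 0.33 and 0.36 TPM in A-MSCs, 0.08, 0 and 0 TPM in fBM-MSCs, and 0.10, 0 and 0.02 TPM in P-MSCs. It was called lower in fBM-MSCs than in vBM-MSCs (log2 fold change -5.83 ± 1.45, adjusted p = 0.0238). The size of this change rested on 7 counts in replicate 1 of the fBM-MSCs, and the call held without that library. The call was lost without replicate 2 of the fBM-MSCs or replicate 1 of the vBM-MSCs and in the fit to the marrow libraries alone. A-MSCs against P-MSCs was not called (adjusted p = 0.0616) but passed in 8 of 19 alternative fits. Col7a1 was low throughout, at 0.51, 0.60 and 0.96 TPM in fBM-MSCs, 0.58 and 1.48 TPM in vBM-MSCs, 0.19, 0.29 and 0.25 TPM in A-MSCs, and 0.49, 0.56 and 0.50 TPM in P-MSCs. The P-MSCs overlapped with the marrow cultures and the A-MSCs were lowest. It was higher in bone marrow MSCs by 1.25 ± 0.29 (log2, adjusted p = 0.00412), and 36 bases of its exons overlap those of the microRNA gene Mir711, so reads there could belong to either.

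The 6 type IV genes lie in 3 head-to-head pairs and did not behave as 1 group. Col4a1 and Col4a2 (chr8:11198423-11312826 and chr8:11312805-11449287) encode the chains of the common basement membrane. Col4a1 ran from 24.9 to 99.7 TPM and Col4a2 from 28.8 to 101 TPM over the 11 libraries, and neither was called in any of the 3 comparisons. Col4a2 was called among the 4 tissues (adjusted p = 0.0465) and lower in fBM-MSCs than in A-MSCs (-0.73 ± 0.24, adjusted p = 0.0285). It was also lower in fBM-MSCs than in vBM-MSCs without overlap (28.8 to 50.9 TPM against 52.8 to 101 TPM), which was not called (-0.79 ± 0.26, adjusted p = 0.0664) but passed in 4 of 19 alternative fits, DESeq2 among them. Their ratio was 0.839 to 1.32 and was not called between the origins (log2 difference -0.10, adjusted p = 0.45, two-sided exact permutation test). Their first exons overlap by 22 bases, where unstranded reads cannot be told apart. Replicate 3 of the fBM-MSCs held the lowest level of both genes and the highest of Col1a1.

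Col4a3 and Col4a4 (chr1:82586921-82722059 and chr1:82450723-82586849) encode chains of the basement membrane of kidney glomerulus and lung alveolus. Col4a3 was at 0.90, 2.35 and 1.50 TPM in P-MSCs, 0.20, 0.34 and 0.02 TPM in fBM-MSCs, 0.17 and 0.23 TPM in vBM-MSCs, and 0.10, 0.31 and 0.11 TPM in A-MSCs. Col4a4 was at 0.62, 0.61 and 0.79 TPM in P-MSCs, 0, 0.06 and 0.02 TPM in fBM-MSCs, 0.03 and 0.08 TPM in vBM-MSCs, and 0.02, 0.17 and 0.06 TPM in A-MSCs. Every lung library was above every other library for both genes. Both were lower in A-MSCs than in P-MSCs, at -2.98 ± 0.77 (log2, adjusted p = 0.0129) and -2.80 ± 0.92 (adjusted p = 0.038). Between the origins, Col4a4 was lower in bone marrow MSCs (-2.63 ± 0.74, adjusted p = 0.0121). Col4a3 was not called there (-1.45 ± 0.57, adjusted p = 0.0556) but passed in 7 of 18 alternative fits, DESeq2 among them (adjusted p = 0.0205). Col4a4 passed the filter on low counts through the P-MSC libraries alone, so its calls against them are not independent of the filter, and neither marrow site was called against A-MSCs (adjusted p = 0.192 for fBM-MSCs and 0.62 for vBM-MSCs). The calls against the A-MSCs were fragile, as leaving out 1 library ended that of Col4a3 in 3 fits (highest adjusted p 0.0569) and that of Col4a4 in 5 (0.111). The libraries were replicates 1 and 3 of the A-MSCs and replicate 2 of the P-MSCs for both, and also replicates 1 and 3 of the P-MSCs for Col4a4.

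Col4a5 and Col4a6 (chrX:141475419-141689235 and chrX:141165403-141474076) share the remaining pair. Col4a6 was at 0 counts in all 3 fBM-MSC libraries, at 0.08 and 1.05 TPM in vBM-MSCs, 0.48, 0.78 and 0.31 TPM in A-MSCs, and 0.17, 0.52 and 0.18 TPM in P-MSCs. Set against a floor of 3 counts over the group, the fBM-MSCs were at least 79.8-fold lower than the vBM-MSCs, at least 70.3-fold lower than the A-MSCs and at least 37.3-fold lower than the P-MSCs. Of the 178 vBM-MSC counts, 167 were in replicate 2, and without it the bound against the vBM-MSCs was 10.8-fold, while without replicate 1 it was 138-fold. The bounds were 46.3, 40.8 and 21.6-fold without replicate 3 of the fBM-MSCs and 51.1, 45.1 and 23.9-fold without their replicate 2, and that against the P-MSCs was 23.6-fold without replicate 2 of the P-MSCs. It was called lower in bone marrow MSCs (adjusted p = 0.00758) and in fBM-MSCs than in vBM-MSCs (adjusted p = 0.00775), while the vBM-MSCs were not called against A-MSCs (adjusted p = 0.97) or P-MSCs (adjusted p = 0.46). The call between the origins thus rested on the fBM-MSCs. Its head-to-head partner Col4a5 was present in those libraries, at 5.15, 8.07 and 3.61 TPM in fBM-MSCs, 10.8 and 12.7 TPM in vBM-MSCs, 8.88, 11.3 and 7.62 TPM in A-MSCs, and 3.86, 5.99 and 7.92 TPM in P-MSCs. The vBM-MSCs were above the fBM-MSCs without overlap but were not called (-1.04 ± 0.32, adjusted p = 0.0538), which passed in 5 of 19 alternative fits, and its call in A-MSCs against P-MSCs (0.83 ± 0.29, adjusted p = 0.0475) was lost in 11 of 19 alternative fits.

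The remaining tested genes were low. Col15a1, of basement membrane zones around vessels and muscle, was at 0.53, 0.25 and 0.29 TPM in A-MSCs, 0.05, 0.01 and 0.02 TPM in P-MSCs, 0.52, 0.77 and 0.41 TPM in fBM-MSCs, and 0.08 and 0.11 TPM in vBM-MSCs. It was higher in A-MSCs than in P-MSCs without overlap (3.95 ± 0.78 on the log2 scale, adjusted p = 0.00318). Col18a1, the source of endostatin, ran from 0.48 to 5.15 TPM and was not called in any of the 3 comparisons (1.19 ± 0.54 between the origins, adjusted p = 0.0924). Replicate 2 of the A-MSCs held 4.40 TPM of it, against 0.48 and 0.60 TPM in the other A-MSC libraries, and without that library the log2 fold change of A-MSCs minus P-MSCs went from 1.22 to -0.53. Between the origins it went to 2.06 without that library (adjusted p = 0.000871), and DESeq2 also called it (adjusted p = 0.0397). Col17a1 did not exceed 0.29 TPM.

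Between the marrow sites, 7 tested genes were lower in fBM-MSCs than in vBM-MSCs (Col3a1, Col4a6, Col6a1, Col6a2, Col8a1, Col12a1 and Col14a1) and 0 were higher, against 7.56% and 5.24% of all tested genes. The median log2 fold change was -0.67 over the collagen genes, also with Col4a6 at its bound, and 0.02 over all tested genes. At an unadjusted p under 0.05, 11 were lower and 3 higher, and DESeq2 called 10 lower and 2 higher. The fit to these 5 libraries alone called 2 lower, Col8a1 and Col12a1, and Col4a6 did not pass its filter on low counts. Although Col1a1 and Col1a2 had their highest values in fBM-MSCs, neither was called between the sites (0.64 ± 0.36, adjusted p = 0.278, and 0.78 ± 0.33, adjusted p = 0.151). The osteoblast marker sums were also higher in fBM-MSCs than in vBM-MSCs. The chondrocyte marker sums were higher in vBM-MSCs (126 to 185 TPM against 15.8 to 99.0 TPM), with Acan under 0.2 TPM in all. Comp made up most of them in vBM-MSCs (109 and 97.6 TPM, against 7.65 to 88.1 TPM in fBM-MSCs). Replicate 2 of the vBM-MSCs also held 75.1 TPM of Col2a1. Col9a1 was at 0 TPM in every marrow library, and Matn3 did not exceed 0.28 TPM there. The smooth muscle and pericyte sums given above and the mesothelial sums (6.72 to 15.2 TPM in vBM-MSCs against 0.48 to 3.54 TPM in fBM-MSCs, mostly from Upk1b) were also higher in vBM-MSCs without overlap, and the part of these markers in the 7 calls was not tested.

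Between the non-bone marrow tissues, A-MSCs held more RNA of Col3a1, Col4a5 and Col15a1 and less of Col5a2, Col4a3 and Col4a4 than P-MSCs, while 16% of all tested genes were called higher and 14.9% lower. The count of lower genes was 0 without replicate 1 of the A-MSCs or replicate 2 of the P-MSCs, and the fit to these 6 libraries alone called 7 higher and 7 lower. The count of higher genes was 6 without replicate 3 of the fBM-MSCs, a library outside this comparison.

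In the comparisons of single tissues, fBM-MSCs against A-MSCs gave 10 collagen genes higher and 4 lower (20.6% and 20.3% of all tested genes), and fBM-MSCs against P-MSCs also 10 and 4 (24.7% and 23%). The vBM-MSCs gave 11 higher and 0 lower against A-MSCs (13.2% and 12.4%) and 10 higher and 2 lower against P-MSCs (21% and 17.7%). At an unadjusted p under 0.05, edgeR gave 1 gene lower in vBM-MSCs than in A-MSCs. These comparisons share libraries. Col5a1, Col5a3, Col6a2, Col8a1 and Col8a2 were higher in each marrow site than in each of the other tissues.

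The 9 collagen genes that did not pass the filter (Col11a2, Col13a1, Col20a1, Col22a1, Col23a1, Col24a1, Col25a1, Col27a1 and Col28a1) held 21 to 153 counts in all 11 libraries together, with at most 0.63 TPM in any library. Col22a1, known from tissue junctions such as that of muscle and tendon, had 152 of its 153 counts in marrow libraries, of which 98 were in replicate 3 of the fBM-MSCs. Col13a1 had all 56 of its counts in marrow libraries, and Col23a1 99 of 107. The transmembrane gene Col25a1 had its 21 counts in 2 fBM-MSC libraries. Col28a1 had 97 of 130 counts in the non-bone marrow libraries. These genes were not tested, and for several of them replicate 3 of the fBM-MSCs held the highest count.

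ATAC-seq marks DNA that a transposase can reach. At a −log10 q of at least 7, a summit lay within 1 kb of a start site in fBM-MSCs, vBM-MSCs, A-MSCs and P-MSCs for 16, 16, 16 and 14 of the 31 collagen genes on chromosomes 1 to 19, which the lists cover. Among those that had passed the RNA filter, it was 13, 14, 13 and 13 of 22, against 86.4%, 88.2%, 89.0% and 88.1% of the 12021 tested genes there. With 1 list per tissue there were no replicates and no test. The promoters of 13 genes were open in all 4 tissues, namely those of Col1a1, Col1a2, Col5a1, Col5a2, Col5a3, Col6a1, Col6a2, Col8a1, Col12a1 and Col16a1, the shared promoter of Col4a1 and Col4a2, and that of Col23a1, which did not pass the RNA filter. Those of 11 genes were open in none, Col8a2 and Col6a3 among them, although both genes had RNA.

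Over all 31 genes and their flanks, 309 distinct sites were found, of which 82 were open in all 4 tissues, 121 in 1 tissue, 13 in both marrow sites alone and 22 in A-MSCs and P-MSCs alone. These were 26.5%, 39.2%, 4.21% and 7.12% of the sites, against 30.2%, 37.0%, 3.66% and 6.73% of the 103643 sites that all summits of the 4 lists gave. A-MSCs had the most sites, 214, of which 49 were found in no other tissue. The list of A-MSCs also held the most summits at the threshold, 71345 against 59536 to 64300.

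**Figure D4:**
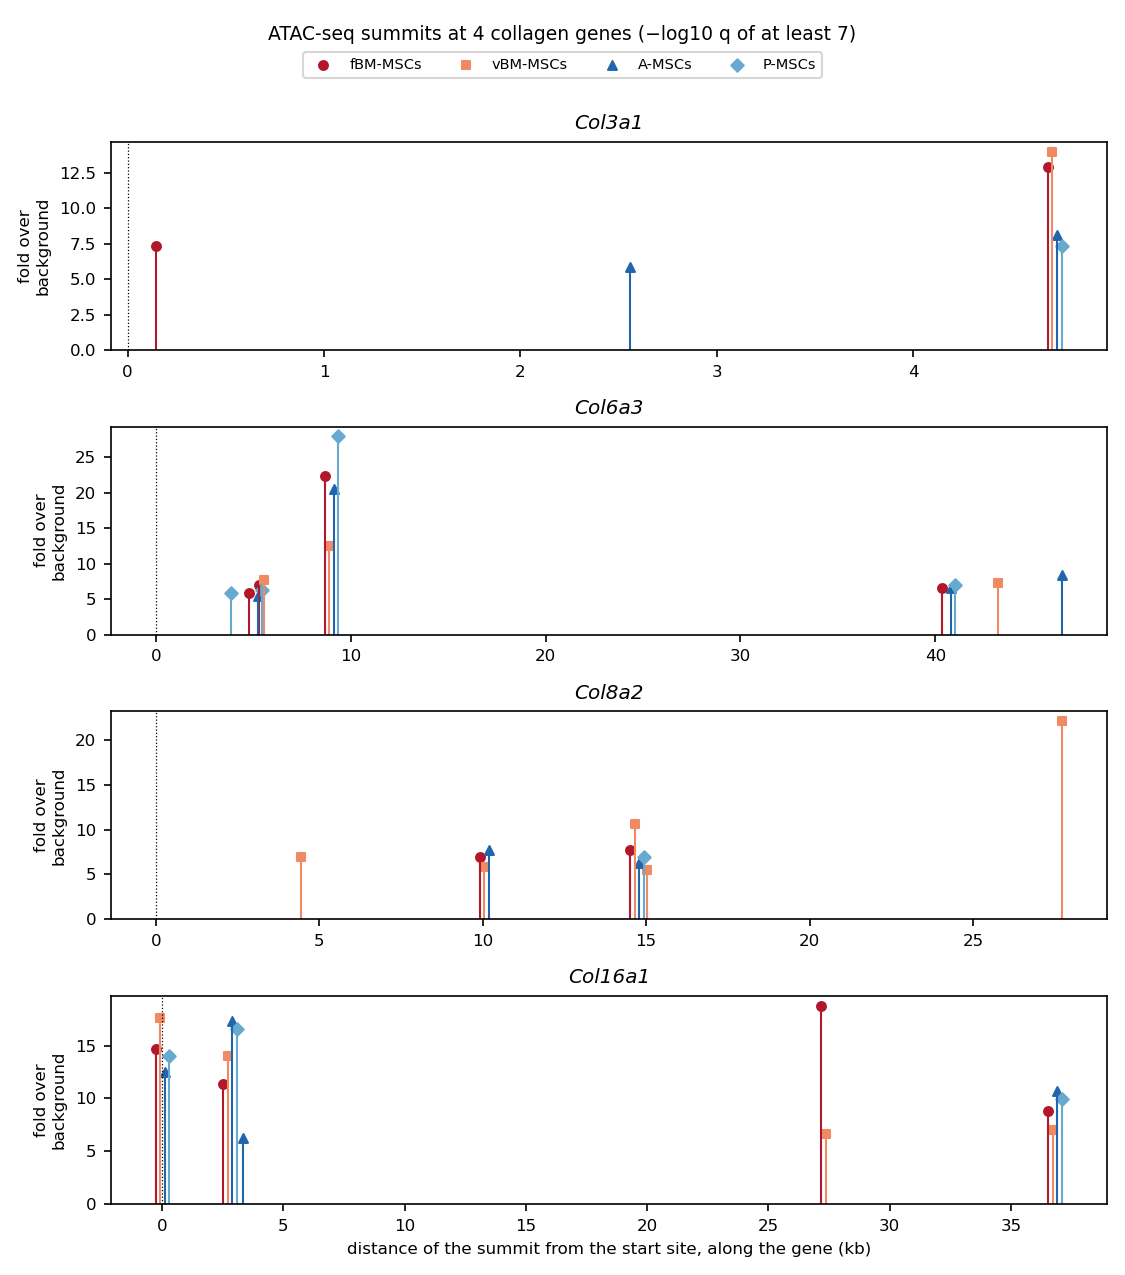
Fold enrichment of ATAC-seq summits over background by distance from the start site, in kb along the gene, for Col3a1, Col6a3, Col8a2 and Col16a1, with 1 symbol per tissue shifted slightly sideways for legibility and the start site as a dotted line. Col8a2 and Col6a3 have no summit at the start, Col8a2 has a summit of 22.1-fold past its end in vBM-MSCs alone, and the Col16a1 site near 27.5 kb is seen in the marrow cultures alone.

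Fold enrichment and RNA did not run in the same order at several genes. At the Col8a1 promoter the fold over background was 16.2 in both marrow sites, 25.8 in A-MSCs and 21.0 in P-MSCs, while its RNA was highest in the marrow cultures. The lists were called separately, and the median fold at the open promoters of all tested genes was also lower for fBM-MSCs (14.3) and vBM-MSCs (15.8) than for A-MSCs (16.2) and P-MSCs (16.9). Col8a1 had 6 sites found in vBM-MSCs alone, 5 in its introns and 1 at its start, with 5.52 to 6.99-fold enrichment. Col6a1 and Col6a2 each had 1 site, at the promoter, in all 4 tissues (5.52 to 9.20-fold and 5.52 to 11.04-fold). At Col3a1, a promoter summit was listed in fBM-MSCs alone (7.36-fold), and an intron site 4719 bases into the gene was open in all tissues, at 12.9-fold in fBM-MSCs, 14.0-fold in vBM-MSCs, 8.09-fold in A-MSCs and 7.36-fold in P-MSCs. Col4a4 had an intron site of 18.4-fold in P-MSCs, against 11.4-fold in A-MSCs, 7.36-fold in fBM-MSCs and 6.62-fold in vBM-MSCs. An intron site of Col5a2 reached 18.8-fold in A-MSCs and 5.89-fold in fBM-MSCs and was not listed in the other tissues, although Col5a2 RNA was lowest in A-MSCs.

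The 151 bases around the summit are shown for the Col16a1 intron site (18.8-fold in fBM-MSCs and 6.62-fold in vBM-MSCs, not listed in A-MSCs or P-MSCs), for the Col8a2 site past the gene's end (22.1-fold in vBM-MSCs alone) and for the Col3a1 intron site. They were chosen after their values were seen, as sites of genes whose RNA differed between the origins, and they were read from GRCm38.p6 along the gene's strand. Capitals mark TGANTCA (AP-1) and TGNGGT (RUNX) on either strand.
Col16a1 site (chr4:130075227-130075377, plus strand): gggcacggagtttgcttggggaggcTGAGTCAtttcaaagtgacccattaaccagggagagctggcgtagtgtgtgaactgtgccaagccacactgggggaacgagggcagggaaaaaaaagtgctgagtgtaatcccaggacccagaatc
Col8a2 site (chr4:126314502-126314652, plus strand): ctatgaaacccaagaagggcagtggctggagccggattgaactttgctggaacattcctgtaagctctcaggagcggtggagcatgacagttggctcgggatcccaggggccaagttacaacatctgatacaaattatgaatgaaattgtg
Col3a1 site (chr1:45316182-45316332, plus strand): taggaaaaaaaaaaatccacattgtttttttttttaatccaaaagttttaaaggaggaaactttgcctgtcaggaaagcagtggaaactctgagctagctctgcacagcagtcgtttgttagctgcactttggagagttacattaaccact
The Col16a1 site holds 1 TGANTCA match, near its start, and the other 2 hold neither motif. Of all summit windows of this length at the threshold, 21.0% to 30.0% in the 4 tissues hold TGANTCA and 29.9% to 34.2% hold TGNGGT.

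The genes that modify, fold, cleave, link or bind collagen were counted in the same fit. Of 17 tested genes of chain modification and folding, 12 rose in the marrow cultures and 1 fell, with a median log2 fold change of 0.38, where 24.8% of all tested genes rose and 22.4% fell. The same shares apply to the other lists in this comparison. Among those that rose, Fkbp14, a helper of folding, changed by 1.31 ± 0.09 (adjusted p = 5.74e-07) and Crtap, of the prolyl 3-hydroxylation complex, by 1.01 ± 0.10 (adjusted p = 9.31e-06). The collagen chaperone Serpinh1 was the one that fell (-0.30 ± 0.08, adjusted p = 0.00953). It was at 583, 577 and 703 TPM in fBM-MSCs, 875 and 1004 TPM in vBM-MSCs, 868, 977 and 971 TPM in A-MSCs, and 883, 957 and 992 TPM in P-MSCs. The vBM-MSCs thus lay with the non-bone marrow tissues, and the fBM-MSCs were lower than the vBM-MSCs (-0.55 ± 0.12, adjusted p = 0.0125). Of 9 tested receptors and uptake genes, 6 were higher and 0 lower. Itga11, the integrin chain for fibrillar collagen, was at 20.6, 15.4 and 39.8 TPM in fBM-MSCs, 36.1 and 44.9 TPM in vBM-MSCs, 10.4, 8.57 and 10.8 TPM in A-MSCs, and 0.28, 0.02 and 0.09 TPM in P-MSCs. Its order of tissues, with P-MSCs lowest and A-MSCs next, held without overlap except between the marrow sites, and it rose by 4.76 ± 0.36 in bone marrow MSCs (adjusted p = 1.52e-06) and by 6.32 ± 0.56 in A-MSCs against P-MSCs (adjusted p = 2.50e-05). Itga10 was called higher as well (adjusted p = 0.000388), at 0.09 to 1.01 TPM in the marrow cultures. It was at 0.01, 0 and 0 TPM in A-MSCs and at 0 TPM in all P-MSC libraries. It could not have passed the filter on low counts without marrow libraries, so its call is not independent of the filter.

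Of 7 tested cross-linking genes, 2 rose in the marrow cultures and 4 fell. Tgm2, a transglutaminase of the matrix, was at 11.2, 13.8 and 11.3 TPM in fBM-MSCs, 85.0 and 45.4 TPM in vBM-MSCs, 231, 308 and 267 TPM in A-MSCs, and 269, 332 and 296 TPM in P-MSCs. It fell between the origins (-3.32 ± 0.19, adjusted p = 2.41e-07) and was lower in fBM-MSCs than in vBM-MSCs (-2.42 ± 0.25, adjusted p = 0.000203). Between the marrow sites, the lysyl oxidase gene Loxl3 was higher in fBM-MSCs (1.43 ± 0.31, adjusted p = 0.0127), while Plod2, a lysyl hydroxylase that directs cross-links (-1.58 ± 0.20, adjusted p = 0.000749), and the collagen receptor chain Itga1 (-2.13 ± 0.44, adjusted p = 0.0106) were lower. Of 6 tested genes of propeptide removal, 1 was higher and 1 lower, the latter being Tll1 (-2.87 ± 0.22, adjusted p = 1.92e-06), at 65.4 to 78.2 TPM in P-MSCs. Of 12 tested basement membrane partners, 2 were higher and 5 lower, with Lamb2, a laminin chain, up (1.83 ± 0.20, adjusted p = 2.14e-05) and Nid1, which links laminin to type IV collagen, down (-1.53 ± 0.20, adjusted p = 9.50e-05). Of 7 genes of chain secretion, 2 were higher and 0 lower, and 5 were not called.

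In A-MSCs against P-MSCs, Loxl2, a lysyl oxidase that acts on type IV collagen (2.81 ± 0.35, adjusted p = 0.000243), and the basement membrane linker Nid2 (2.59 ± 0.21, adjusted p = 1.71e-05) were higher. Tll1 (-2.11 ± 0.27, adjusted p = 0.000313), the laminin chain Lama2 (-1.98 ± 0.54, adjusted p = 0.0164) and Loxl4 (-1.51 ± 0.23, adjusted p = 0.000694) were lower. Between these tissues, where 16% of all tested genes were higher and 14.9% lower, the counts higher and lower in A-MSCs were 5 and 2 of 17 modification and folding genes, 3 and 1 of 7 secretion genes, and 4 and 1 of 6 propeptide removal genes. They were 3 and 1 of 7 cross-linking genes, 4 and 1 of 9 receptors and uptake genes, and 1 and 3 of 12 basement membrane partners. Between the marrow sites, where 7.56% of all tested genes were lower in fBM-MSCs and 5.24% higher, 3 modification and folding genes, 3 cross-linking genes, 1 receptor and 1 basement membrane partner were lower and 1 cross-linking gene was higher. By edgeR, 0 of the 7 secretion genes and 0 of the 6 propeptide removal genes were called, 1 and 4 had an unadjusted p under 0.05, and DESeq2 called 0 and 2.

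The other collagen genes, mostly of cartilage, were set beside the list. Of 11 found, 3 were tested (Col2a1, Col10a1 and Col11a1) and all 3 were called higher in bone marrow MSCs, although Col10a1 passed the filter on low counts through marrow libraries alone. Col10a1 rose by 6.67 ± 0.67 (log2, adjusted p = 1.19e-05) and Col11a1 by 1.06 ± 0.24 (adjusted p = 0.00371). The call of Col2a1 (adjusted p = 0.00867) has no fold change here because all A-MSC libraries were at 0 counts. Col2a1 was at 0.43 to 4.41 TPM in fBM-MSCs, 4.92 and 75.1 TPM in vBM-MSCs, 0 TPM in A-MSCs, and 4.21, 0 and 0 TPM in P-MSCs, so replicate 1 of the P-MSCs lay within the range of the fBM-MSCs.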

How the data were processed

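Smart-seq2 libraries of poly(A) RNA, which carry neither strand nor molecular identifiers, were aligned and quantified by the authors with RSEM against mm10. The deposited values are expected counts, TPM and FPKM for each gene and library, and FPKM was not used. The expected counts are RSEM estimates without normalization, and TPM is scaled by the authors for effective length and library. ATAC-seq reads were trimmed (Trim Galore), aligned (Bowtie), freed of duplicates (Picard) and pooled by tissue for region calling (MACS2) by the authors. The deposited lists give for each summit a score, its −log10 q and, as a ratio, its fold enrichment over background. Versions are not given in the sources used here.

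After rounding, the expected counts entered a two-sided quasi-likelihood test (edgeR 4.0.16, R 4.3.3) with TMM scaling, and p-values were adjusted by Benjamini-Hochberg over 12509 genes and called under 0.05. One model held the 4 tissues and all 11 libraries, and genes needed 1 CPM or more in 2 or more libraries. Standard errors were derived from the fold change and F. The libraries are the labelled replicates of cultures from 3 mice, so p-values measure the spread between these cultures. Each library held 19569650 to 40517739 expected counts, and a floor of 3 counts was used where a tissue had none; such floors cover counting error only. Ratios of TPM between chain genes, with 0.01 TPM added, were compared by a two-sided exact permutation test.

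Summits were assigned to genes of RefSeq annotation GRCm38.p6, whose chromosome lengths are those of mm10. Alternatives were DESeq2 1.42.0, RLE size factors, other filters, limma 3.58.1 on log2(TPM + 1) and log2(TPM + 0.1), a replicate block, only the libraries compared, and leaving out each library. The fit, the permutation test and the promoter assignment were tested on simulated data. Replicate numbers were not taken to pair the libraries.

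The members and gene lists were chosen with earlier results of these data known. Values in each library are given for tested members called in at least 1 of the 3 comparisons (bone marrow against non-bone marrow, fBM-MSCs against vBM-MSCs, A-MSCs against P-MSCs), and ranges for the others. Of the pathway lists, up to 3 genes with the largest change per direction and comparison are named, and Col6a3 (by library), Fkbp14, Crtap, Serpinh1 and the other collagen genes were named after their values were seen. Computations also used Python 3.11.15, numpy 2.4.6, pandas 2.3.3, scipy 1.17.1 and matplotlib 3.10.9.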

Additional observations from a re-analysis of the deposited data

How the results depend on the processing

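Of the 28 calls of single collagen genes in the 3 comparisons, 18 held under every alternative that tested the gene, 5 of them not tested under 1 or more for low values, and 10 were lost under at least 1, while 19 values that were not called passed under at least 1. No called value changed its sign. The count of genes higher in fBM-MSCs than in vBM-MSCs was 0, and 1 with the filter in 3 libraries, without a filter, with limma on log2(TPM + 1) or log2(TPM + 0.1), and 2 with DESeq2. Genes lower in bone marrow MSCs numbered 1 with limma on either scale. Genes lower in fBM-MSCs numbered 2 in the fit to the compared libraries alone. Genes higher in A-MSCs than in P-MSCs numbered 1 with limma on log2(TPM + 1), 5 without a filter and 7 in the compared libraries alone, and genes lower numbered 7 in the latter. Leaving out each library gave 2 to 6 higher and 0 to 4 lower in A-MSCs, 0 to 1 higher and 5 to 9 lower in fBM-MSCs, 11 to 13 higher and 2 to 3 lower in bone marrow MSCs, and 18 to 21 differing among the 4 tissues. With every listed summit, the vBM-MSC list had 24 open promoters, that of A-MSCs 22 and that of P-MSCs 21. The cause of these shifts was not tested, apart from the fewer libraries or genes of some fits.

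The values that changed sign were all uncalled. With limma, Col1a2 in A-MSCs minus P-MSCs went to -0.0701 on log2(TPM + 0.1) and -0.0699 on log2(TPM + 1). Over the fits without 1 library, the log2 fold change of A-MSCs minus P-MSCs ran from -0.24 to 0.058 for Col4a1, from -0.53 to 1.67 for Col18a1 and from -0.47 to 1.14 for Col17a1. For fBM-MSCs minus vBM-MSCs it ran from -0.71 to 0.51 for Col5a2, -0.85 to 0.49 for Col4a3, -2.01 to 0.042 for Col4a4, -0.98 to 0.21 for Col7a1 and -0.87 to 0.66 for Col18a1, with each upper end except that of Col4a3 (replicate 3 of the fBM-MSCs) found without replicate 2 of the vBM-MSCs. Between the origins it ran from -0.35 to 0.036 for Col4a2, -0.0204 to 0.27 for Col4a5, -1.91 to 1.50 for Col14a1 (the lower end with fBM-MSCs at 0 counts, so its size is not measured) and -0.12 to 1.19 for Col17a1.

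Same-numbered libraries did not deviate together: 1 of 15 pairs correlated above 0.1 (range -0.028 to 0.125), so the numbers were not taken as a pairing. With the replicate block, 13 genes rose and 3 fell in the marrow cultures, 1 was higher and 7 lower in fBM-MSCs than in vBM-MSCs, and Col18a1 in that comparison went to 0.15. For the chain ratios, an exact permutation within replicate numbers (108 divisions, chosen after seeing the data) called the same 3 of 8 pairs, Col6a1/Col6a2 and Col6a3/Col6a1 (adjusted p = 0.037 for both) and Col8a1/Col8a2 (adjusted p = 0.0494).

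Genes under 1 TPM rest on few counts. The ATAC-seq lists pool replicates and allow no error. The 2 vBM-MSC libraries differed in osteoblast and cartilage genes, and the fits without 1 of them assume that the lone library varies like the other tissues.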
